A study of Rattus norvegicus with 20 samples.

Results

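Subcutaneous tissue from 5 rats of the rosiglitazone group was set against that from 5 rats of the obese group, and each difference is rosiglitazone minus obese. These 10 arrays of the 20 in the series were chosen by the group named in their titles, so no measured value entered the choice. The other arrays came from 5 resveratrol rats and 5 lean control rats, and their levels are given beside those of the 10. All animals were male ZDF (Zucker diabetic fatty) rats, labelled as Zucker strain, a model of obesity and diabetes; the labels name the depot as subcutaneous. The lean controls ate standard chow, and the obese rats ate a stock diet for 6 weeks. The labels give no dose, route or duration for rosiglitazone or resveratrol, and do not say whether the rats given them were obese or what they ate. The arrays are labelled as biological replicates, 5 in each group.

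Rosiglitazone is a thiazolidinedione that binds and activates PPAR gamma, a nuclear receptor found at high levels in fat cells. PPAR gamma pairs with a retinoid X receptor and switches on genes for taking up, storing and handling fatty acids, and it is needed for fat cells to form. White fat cells mainly store triglyceride, and their mitochondria burn fatty acids, feed the citric acid cycle and supply citrate for new fatty acids.

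Each array (Affymetrix Rat Gene 2.1 ST, total RNA) held 36685 transcript clusters, which are sets of probes for 1 transcribed region, as log2 RMA values between -0.16 and 12.48. No pair of arrays held identical values. Of the clusters, 14830 were paired with a single gene symbol and are called named clusters here. A cluster was called when its adjusted p (limma, Benjamini-Hochberg over all 36685 clusters) was under 0.05. Rosiglitazone arrays were the more alike: the median SD of a cluster was 0.23 among rosiglitazone arrays and 0.36 among obese arrays. The SD of all values within an array was 1.95 ± 0.019 on rosiglitazone arrays and 1.81 ± 0.091 on obese arrays (SD, n = 5 each), with no overlap and an exact permutation p of 0.00794, two-sided and the smallest that the assignments of 5 and 5 arrays can give. Obese array 3 had the narrowest values, with a within-array SD of 1.66, and the within-array difference without it was 0.10.

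With rosiglitazone, 3266 clusters rose and 2246 fell, which was 8.9% and 6.12% of all clusters. Among the named clusters, 2090 rose (14.1%) and 723 fell (4.88%). The named clusters brighter than the median level of the table, 8700 in all, held 2042 higher (23.5%) and 288 lower (3.31%), and their median log2 difference was 0.26, against -0.08 over all clusters. Counts in lists of bright genes are read against these last shares. Centring each array on its median moved the median difference of all clusters by 0.17. It turned the split to 5156 higher and 985 lower, or 84% higher against 59.3%. Centring adds the same 0.17 to every difference, so it could turn only decreases smaller than that. Gpnmb, Sparc and the endothelial genes Cldn5, Sox17 and Tie1 lost their calls with it. Under quantile normalization no called member of the lists below and none of the 30 named genes changed direction. Beside these, 461 clusters were higher (1.26%) and 347 lower (0.946%) in rosiglitazone than in resveratrol arrays, and 1349 were higher (3.68%) and 625 lower (1.7%) in rosiglitazone than in lean arrays. Those comparisons use the same rosiglitazone arrays. Leaving out obese array 3 took the count of all called clusters to 3206, and leaving out rosiglitazone array 4 or 5 took it to 3411 or 3555. The called decreases ranged from 1084 to 3414 when single arrays were left out: 1084 without obese array 3, 1169 without rosiglitazone array 4, 1195 without rosiglitazone array 5, 1361 without obese array 5 and 3414 without obese array 4. The increases numbered 2122 without obese array 3.

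The genes with the largest increases were Alb, Fabp3, Cilp and Elovl6. Alb, which encodes the plasma protein albumin, read 9.74, 10.08, 9.46, 9.09 and 9.60 on the rosiglitazone arrays, against 5.04, 4.72, 3.60, 4.50 and 3.45 on the obese arrays. Every rosiglitazone array lay far above the highest obese array. The difference was 5.34 ± 0.40 (SE), or 40.4-fold, with an adjusted p of 8.87e-08 from limma. Alb averaged 4.40 ± 0.15 on the resveratrol arrays and 6.99 ± 1.12 on the lean arrays (SD, n = 5 each), so the lean mean fell between those of the rosiglitazone rats (9.59 ± 0.36) and the obese rats (4.26 ± 0.70). Albumin is made mainly by the liver. A list of 23 other hepatocyte genes, written after the Alb values were seen, had 17 members among the named clusters. None of them was called higher and 1, Tat, was called lower, and their summed linear values spanned 162 to 261 on rosiglitazone arrays and 181 to 286 on obese arrays. The brightest of them was Tf, transferrin, with means of 7.09 in rosiglitazone and 7.27 in obese rats. Of the 17 clusters, 15 lay below the median level of the table, where the list could show little. Liver RNA as a source of the Alb rise was not tested.

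Fabp3, a fatty acid binding protein best known from heart and skeletal muscle, read 8.85, 8.61, 8.44, 9.05 and 8.69 with rosiglitazone, against 4.99, 5.38, 3.59, 4.26 and 4.36 in obese rats. The groups were far apart, with a difference of 4.21 ± 0.30, or 18.6-fold (adjusted p = 6.11e-08, limma). Cilp, a cartilage matrix protein, read 7.33, 6.96, 7.97, 5.59 and 8.01 with rosiglitazone, against 3.50, 3.24, 3.11, 3.02 and 2.74 in obese rats. Rosiglitazone array 4 was the lowest of its group and still stood above all obese arrays, and the difference of 4.05 ± 0.36 was 16.5-fold (adjusted p = 6.11e-07, limma).

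The other 11 of the 15 largest named increases ranged from 8.08-fold (Prg4) to 11-fold (Bin2a). Cpt1b, Me1 and, from the leading 4, Elovl6 are described with the lists they belong to. Dsp, which encodes the desmosome protein desmoplakin, rose by 3.40 log2 units, and its obese arrays all lay between 2.09 and 2.43. Aspn, a small leucine-rich proteoglycan, rose by 3.37, P4ha3, a subunit of the enzyme that hydroxylates collagen prolines, by 3.21, Col8a1, a chain of type VIII collagen, by 3.17, and Prg4, the joint lubricant lubricin, by 3.01. The calls of Dsp and Aspn were lost when each group kept its own spread. With the within-array SD as a covariate the Aspn rise was 2.03 and was not called. Aadat, an aminotransferase of lysine and kynurenine breakdown, rose by 3.30 and Akr1c15, an aldo-keto reductase, by 3.20. Vat1l had the lowest adjusted p of the 15, 2.75e-09, and read 4.85 to 5.58 with rosiglitazone against 1.63 to 2.26 in obese rats. All 15 were also higher in rosiglitazone than in resveratrol arrays and than in lean arrays, in contrasts that share the rosiglitazone arrays.

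**Figure D1:**
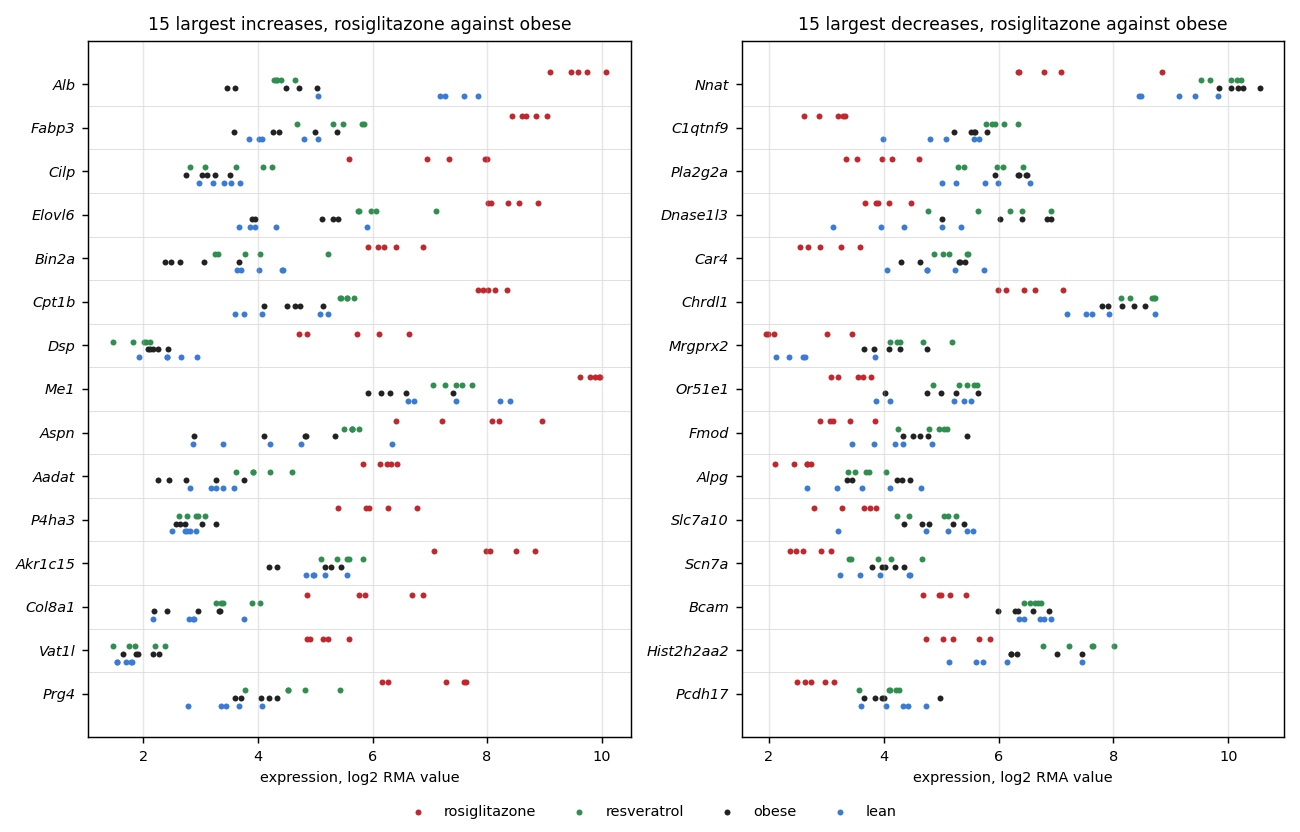
Log2 RMA values of the 15 largest named increases (left) and decreases (right); each point is 1 array and each row holds, from top to bottom, the rosiglitazone, resveratrol, obese and lean arrays. By the rule that chose them, rosiglitazone and obese arrays do not overlap in any row; resveratrol and lean arrays mostly lie near the obese arrays, and the lean arrays for Alb average 6.99.

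Fatty acid oxidation rose almost as a whole. Of 13 measured genes of this list, 12 were called higher and none lower, with a median difference of 1.91; read against 23.5% and 0.26 for named clusters above the median level. Fatty acids enter mitochondria through the carnitine shuttle. Cpt1b, the muscle-type carnitine palmitoyltransferase of the outer membrane, read 8.13, 8.35, 7.84, 7.92 and 8.01 with rosiglitazone, against 5.14, 4.73, 4.10, 4.65 and 4.51 in obese rats. All rosiglitazone arrays lay above all obese arrays, and the difference was 3.43 ± 0.26, or 10.7-fold (adjusted p = 1.01e-07, limma). Its liver-type counterpart Cpt1a read 4.90 to 5.50 with rosiglitazone and 4.28 to 5.83 in obese rats, overlapping, with a difference of 0.22 (95% interval -0.34 to 0.77) and an adjusted p of 0.598. Slc25a20, the carnitine-acylcarnitine carrier, rose by 1.91 and Cpt2, on the inner membrane, by 1.47.

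Inside the mitochondrion, acyl-CoA dehydrogenases take the first step of each oxidation cycle. Acadl, for long chains, read 9.36, 9.82, 9.52, 8.86 and 9.66 with rosiglitazone, against 7.30, 7.26, 6.11, 7.68 and 6.96 in obese rats. The groups did not overlap, obese array 3 was the lowest, and the difference was 2.39 ± 0.23 (adjusted p = 1.12e-06, limma). Acadvl, for very long chains, rose by 1.80 and Acadm, for medium chains, by 1.66. Hadha and Hadhb, the subunits of the trifunctional protein that carries out the later steps, rose by 1.42 and 2.24, and Acaa2, the thiolase that ends the cycle, by 2.08. Etfdh, which hands the electrons to the respiratory chain, rose by 1.99, Decr1, needed for unsaturated chains, by 2.04, and Ehhadh, a peroxisomal enzyme, by 1.79.

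All 12 calls of this list were kept in each of the 10 fits that left out 1 array, with quantile normalization, with centring and in a fit of the 10 arrays alone. When each group kept its own spread, 4 of the 13 were called, and 10 with the within-array SD as a covariate. These 12 genes were also higher in rosiglitazone than in resveratrol arrays, with a list median of 1.58, where 3.41% of named clusters above the median level were higher. Against the lean arrays 11 of the 13 were higher, where 10% were. Fabp3 and Cpt1b are also muscle genes, and rosiglitazone array 3 carried skeletal muscle transcripts: Acta1, muscle actin, read 7.93 there, against 3.19 to 3.85 on the other rosiglitazone arrays and 3.10 to 4.67 on the obese arrays. On that same array Fabp3 (8.44) and Cpt1b (7.84) had their lowest values of the rosiglitazone group. Whether muscle in the tissue bears on their rises was not tested. No muscle marker of 8 measured was called between the groups, and the summed linear value of the list spanned 46.7 to 599 on rosiglitazone arrays and 55.3 to 83.3 on obese arrays.

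**Figure D2:**
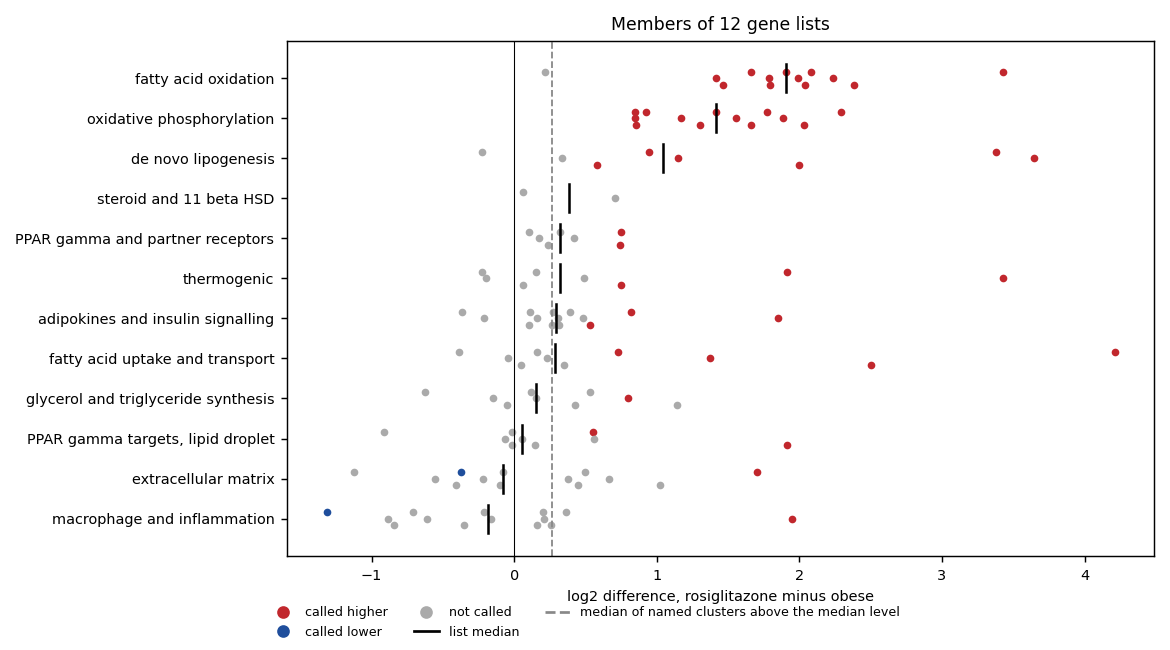
Difference, rosiglitazone minus obese on the log2 scale, of every measured member of 12 gene lists; each point is 1 cluster, coloured by its call, the black bar is the list median and the dashed line is the median of named clusters above the median level (0.26). The lists of fatty acid oxidation (median 1.91), oxidative phosphorylation (1.41) and de novo lipogenesis (1.05) lie furthest to the right.

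The respiratory chain and the enzymes that feed it were higher throughout the list chosen for them: all 13 measured genes of oxidative phosphorylation were called higher, with a median of 1.41 and no overlap between the groups for any, against 17.6% of the named clusters above the median level that were higher without overlap. Uqcrc1, a core subunit of complex III, read 7.08, 7.71, 7.58, 7.40 and 7.63 with rosiglitazone, against 5.93, 5.33, 4.47, 5.74 and 5.78 in obese rats. The difference was 2.03 ± 0.21, or 4.09-fold (adjusted p = 2.85e-06, limma), and obese array 3 lay lowest. Sdha, the flavoprotein subunit of complex II, read 8.70, 9.33, 8.95, 8.75 and 8.97 with rosiglitazone, against 7.69, 7.62, 6.84, 7.39 and 7.37 in obese rats. The groups were more than 1 log2 unit apart at their nearest arrays, and the difference was 1.56 ± 0.15 (adjusted p = 1.54e-06, limma). Sdhb rose by 1.66 and Uqcrc2 by 1.77. Complex IV subunits moved less, by 0.85 for Cox4i1, 0.86 for Cox5b and 0.92 for Cox6c, and the catalytic subunits of ATP synthase rose by 1.30 (Atp5f1a) and 1.41 (Atp5f1b). Cox4i1 read 8.31, 8.56, 8.40, 8.15 and 8.46 with rosiglitazone, against 7.99, 7.57, 7.06, 7.53 and 7.50 in obese rats, so that the nearest arrays of the groups were close.

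Of the 13 genes, 11 were higher in rosiglitazone than in resveratrol arrays and 13 in rosiglitazone than in lean arrays. All 13 calls against obese arrays were kept whichever single array was left out. With a separate spread for each group 4 were called, and 7 with the within-array SD as a covariate.

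Genes of the respiratory chain are known for promoters that bind ETS-family factors such as GABP, whereas PPAR gamma binds repeats of a nuclear receptor half-site. RefSeq promoter windows (GRCr8, 250 bases before to 50 after the start of the gene) were matched by symbol to 11 of the 13 genes, and both strands were searched. The ETS letters CCGGAAG were found in 5 of the 11 windows (Atp5f1a, Cox4i1, Cox5b, Sdhb and Uqcrc2) and in 8.75% of all 33469 windows. They were in 2 of 9 windows of the fatty acid oxidation list (Cpt2 and Slc25a20) and in none of 13 windows of the largest increases. The single half-site AGGTCA, held by 16.2% of all windows, was in 3 of the 11, in 2 of the 9 and in 2 of the 13. The letters CCAAT, held by 37.5% of all windows, were in 4, 2 and 3 of them. Windows of 3 of the 5 genes with the ETS letters are printed 5′ to 3′ along the gene, to show where the letters lie, with the matches on either strand in capitals: Cox4i1 (chr19:65630133-65630432, plus strand), Sdhb (chr5:158547684-158547983, plus strand) and Uqcrc2 (chr1:184598990-184599289, plus strand).
Cox4i1: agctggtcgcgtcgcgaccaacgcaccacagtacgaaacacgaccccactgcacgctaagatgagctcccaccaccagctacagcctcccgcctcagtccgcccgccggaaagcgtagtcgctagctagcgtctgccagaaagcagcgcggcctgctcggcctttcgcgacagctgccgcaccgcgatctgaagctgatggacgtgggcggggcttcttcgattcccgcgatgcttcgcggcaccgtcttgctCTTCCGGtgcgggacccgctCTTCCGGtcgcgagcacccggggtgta
Sdhb: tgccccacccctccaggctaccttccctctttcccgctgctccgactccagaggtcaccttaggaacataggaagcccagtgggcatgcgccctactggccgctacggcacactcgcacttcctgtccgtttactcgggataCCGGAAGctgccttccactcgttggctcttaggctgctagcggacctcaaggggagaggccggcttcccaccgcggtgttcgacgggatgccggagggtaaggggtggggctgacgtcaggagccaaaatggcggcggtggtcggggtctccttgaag
Uqcrc2: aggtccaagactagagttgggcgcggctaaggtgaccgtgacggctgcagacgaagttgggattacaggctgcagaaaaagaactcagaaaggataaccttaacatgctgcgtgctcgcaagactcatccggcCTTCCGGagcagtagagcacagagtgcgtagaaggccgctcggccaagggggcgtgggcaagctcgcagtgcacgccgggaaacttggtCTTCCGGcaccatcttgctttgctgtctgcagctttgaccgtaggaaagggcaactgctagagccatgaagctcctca
The Cox4i1 and Uqcrc2 windows held 2 matches each and the Sdhb window 1. A match of letters is a description of the sequence, and no binding was measured.

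The citric acid cycle and other mitochondrial and peroxisomal pathways were described with lists and symbol families written after the values had been seen, so their counts are descriptions and no support for a direction. All 18 measured genes of the citric acid cycle and of the entry of pyruvate into it were called higher, with a median of 1.66. Named clusters above the median level had 23.5% higher and a median of 0.26. Idh3a, the catalytic subunit of the NAD-dependent isocitrate dehydrogenase, read 8.47, 8.71, 8.33, 8.49 and 8.34 with rosiglitazone, against 6.61, 6.72, 5.78, 6.33 and 5.42 in obese rats, a difference of 2.30 ± 0.22 without overlap (adjusted p = 1.09e-06, limma). Cs, citrate synthase, rose by 1.89, Pdhb, of the pyruvate dehydrogenase complex, by 2.19, and Pc, pyruvate carboxylase, which replenishes oxaloacetate, by 2.34. In 7 of the 10 fits that left out 1 array 17 of the 18 were called, with a separate spread for each group 10, and with the within-array SD as a covariate 14. The smallest called rise was 0.53, for Idh2, with an adjusted p of 0.0434; Idh2 overlapped between the groups and averaged 5.91 with rosiglitazone, 5.92 with resveratrol, 5.38 in obese and 6.24 in lean rats.

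Breakdown of the branched-chain amino acids was represented by 17 clusters of 15 genes, with a median of 1.26. All 17 were called higher, against 23.5% of named clusters above the median level. Acat1, the mitochondrial thiolase that ends isoleucine breakdown, rose by 2.43, Acadsb by 1.99, and Dbt and Bckdhb, parts of the branched-chain ketoacid dehydrogenase, by 1.34 and 1.44. The symbol Mmut had a pair of clusters with identical values, and Acad8 had clusters at 1.21 and 0.77. With a separate spread for each group none of the 17 was called, and 3 were called with the within-array SD as a covariate. The Bcat2 call was lost in 7 of the 10 fits that left out 1 array. Peroxisomal genes were called higher in 14 of 19 clusters (73.7%, against the same 23.5%), with a median of 0.84. Among them were Decr2 (1.93), Crot (1.67) and catalase, Cat (0.64). Pex5, the import receptor, differed by 0.01 and Pex11a by -0.10, neither called. Of these 19, 3 were called with a separate spread and 5 with the within-array SD as a covariate. The calls of Acot8 and Pex7 were lost in 8 and 7 of the 10 fits that left out 1 array.

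Symbol families covered more genes of the mitochondrion. Their counts are read against the 23.5% called higher and 3.31% called lower among named clusters above the median level. Of 46 clusters for complex I subunits and assembly factors, 33 were called higher and none lower (median 0.92), led by Ndufv1 (2.03), which carries the NADH site. Counts of clusters called higher were 6 of 7 for complex III, 13 of 24 for complex IV and 13 of 21 for ATP synthase, where 1, Atp5f1c, was called lower by 0.91. The Atp5f1c call was lost with both normalizations, array weights, the replicate block, the fit of the 10 arrays, a separate spread and the within-array SD. It was also lost when rosiglitazone array 2, 3, 4 or 5 or obese array 3 or 5 was left out. Of 64 mitochondrial ribosome clusters 41 were higher (median 0.67), and of 22 for protein import 12 were (median 0.64). The mitochondrial carriers, with 17 of 40 higher and a median of 0.35, lay nearer the median of 0.26 of named clusters at this level. Increases called with a separate spread for each group numbered 6 for complex I, 3 for complex III, 0 for complex IV, 2 for ATP synthase, 5 for the mitochondrial ribosome, 0 for import and 2 for the carriers. With the within-array SD as a covariate they numbered 8, 3, 0, 3, 5, 1 and 5 in the same order. By comparison, 68 clusters for cytosolic ribosomal proteins held 1 called higher (Rps3), 1 called lower (Rpl7a) and a median of 0.08; several of these genes have near-identical copies whose signal the array may not separate.

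**Figure D3:**
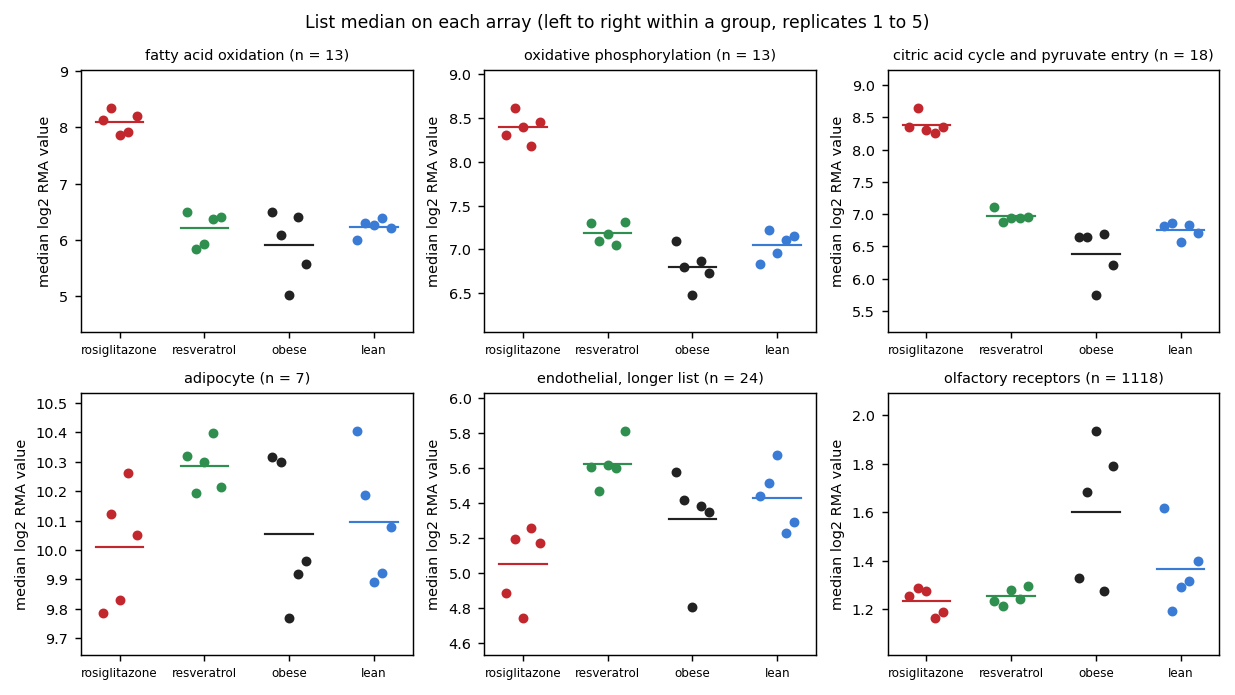
Median log2 RMA value of 6 groups of genes on each of the 20 arrays; points are arrays, ordered as replicates 1 to 5 within a group, lines are group means, and n is the number of clusters. The rosiglitazone arrays lie above all others for fatty acid oxidation (7.86 to 8.35, against 5.03 to 6.50 on obese arrays), oxidative phosphorylation and the citric acid cycle, and overlap the others for the adipocyte markers.

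Synthesis of new fatty acids was also higher for most measured genes: 6 of 8 were called higher and none lower, with a median of 1.05. The called share was 75%, against 23.5% of named clusters above the median level. The list has 12 genes, and Fasn, Acaca, Acacb and Mlxipl, among them the central enzymes fatty acid synthase and acetyl-CoA carboxylase, were not among the named clusters and were not analysed here. Elovl6, which lengthens palmitate, read 8.89, 8.36, 8.55, 8.02 and 8.07 with rosiglitazone, against 5.31, 5.40, 3.95, 5.12 and 3.89 in obese rats. Me1, malic enzyme, which supplies NADPH, read 9.97, 9.89, 9.96, 9.80 and 9.63 with rosiglitazone, against 6.30, 6.58, 5.92, 7.40 and 6.14 in obese rats. Neither gene overlapped between the groups, and the differences were 3.65 ± 0.39 for Elovl6 (adjusted p = 5.18e-06, limma) and 3.38 ± 0.31 for Me1 (adjusted p = 7.93e-07, limma). Acly, which makes cytosolic acetyl-CoA from citrate, rose by 2.0, Insig1, a brake on SREBP processing, by 1.15, Scd, the stearoyl-CoA desaturase, by 0.94 and Thrsp by 0.58. Srebf1, the gene of a main lipogenic regulator, read 4.64 to 6.76 with rosiglitazone and 4.64 to 6.25 in obese rats and was not called (0.33, adjusted p = 0.544). Of the 6, 3 were also higher in rosiglitazone than in resveratrol arrays (Acly, Elovl6 and Me1). With a separate spread 3 of the 8 were called, and 2 with the within-array SD as a covariate. The Scd call was lost in 6 of the 10 fits that left out 1 array.

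Fatty acid uptake split by gene. Slc27a1, a fatty acid transport protein, read 7.62, 7.12, 7.58, 7.60 and 6.99 with rosiglitazone, against 5.38, 4.77, 4.40, 5.08 and 4.76 in obese rats, without overlap, a difference of 2.50 ± 0.22 (adjusted p = 5.16e-07, limma). Fabp3, above, Olr1 (1.37), a scavenger receptor, and Aqp7 (0.73), the glycerol channel, were the other called increases among 10 measured genes, whose median was 0.29. The share called higher was 40%, against 23.5% of named clusters above the median level. Without obese array 3, 2 of the 10 were called. Quantile normalization gave 2 called higher and 1 called lower. The Olr1 call was lost in 7 of the 10 fits that left out 1 array, with quantile normalization and in the fit of the 10 arrays. With a separate spread, or with the within-array SD as a covariate, Fabp3 and Slc27a1 alone were called. The most familiar fat-cell genes of the list were near the top of the scale and did not pass the test: Fabp4, the main fat-cell fatty acid binding protein, read 11.19 to 11.28 with rosiglitazone and 11.12 to 11.37 in obese rats (difference -0.04, 95% interval -0.25 to 0.17), Cd36 differed by 0.05 and Lpl, lipoprotein lipase, by 0.16.

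Lipid droplet and triglyceride genes were mostly not called. On the droplet list 2 of 9 (22.2%) were called higher, against 23.5% of named clusters above the median level. The list median was 0.06. Cidea, a droplet protein that is also a brown fat marker, read 10.32, 10.48, 10.18, 10.17 and 10.18 with rosiglitazone, against 8.92, 8.98, 6.90, 8.29 and 8.68 in obese rats, a rise of 1.91 ± 0.34 without overlap (adjusted p = 0.00102, limma). Obese array 3 lay far below the other obese arrays. Pnpla2, the triglyceride lipase ATGL, rose by 0.56, while Plin1 (-0.06), Plin2 (-0.02) and Cidec (0.14), which coat or enlarge droplets, were not called. The lowest difference on the list was -0.91, also not called. With quantile normalization, with either filter on dim clusters or without obese array 2, 1 member was called lower. The calls of Cidea and Pnpla2 were lost with a separate spread and with the within-array SD as a covariate. In glycerol and triglyceride synthesis 1 of 9 was called, Dgat1, by 0.80 (adjusted p = 0.0241, limma). The Dgat1 call was lost in both of those settings, and when rosiglitazone array 1, obese array 3 or obese array 5 was left out. It was also lost in the fit of the 10 arrays and with quantile normalization, where 1 of the 9 was called lower.

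The receptor itself could not be followed, since Pparg was not among the named clusters and was not analysed here. Of 7 measured partners and coactivators, 2 (28.6%) were called higher, against 23.5% of named clusters above the median level. Ppargc1a, the coactivator PGC-1 alpha of mitochondrial genes, rose by 0.75 and Ncoa1, a steroid receptor coactivator, by 0.74. Neither was called with a separate spread or with the within-array SD as a covariate. Ppargc1a read 3.42, 2.97, 2.64, 3.27 and 2.75 with rosiglitazone, against 2.42, 2.10, 1.97, 2.20 and 2.62 in obese rats, with the nearest arrays of the groups almost touching (adjusted p = 0.00376, limma). Rxra, the partner receptor, differed by 0.10 and was not called.

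Thermogenic genes rose in part. Of 8 measured, 3 (37.5%, against 14.1% of all named clusters) were called higher, namely Cpt1b, Cidea and Ppargc1a, given above. The median was 0.32, and 5 of the 8 clusters lay below the median level of the table. With a separate spread, or with the within-array SD as a covariate, Cpt1b alone was called. Ucp1, the uncoupling protein that defines brown and beige fat cells, read 1.36 to 1.80 with rosiglitazone and 1.37 to 2.27 in obese rats, below the median level of the table (2.55) on every one of these arrays. Its difference was -0.20 (95% interval -0.59 to 0.19, adjusted p = 0.477). Dio2 (0.06), Cox8b (0.15) and Ucp3 (0.49) were not called either.

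Among adipokines and insulin signalling genes, 3 of 14 (21.4%) were called higher and none lower, with a median of 0.29. These are near the 23.5% and the median of 0.26 of named clusters above the median level. Slc2a4, the insulin-responsive glucose transporter GLUT4, read 5.22, 5.67, 5.38, 4.99 and 5.31 with rosiglitazone, against 4.05, 3.43, 3.23, 3.68 and 2.93 in obese rats. The groups did not overlap and the difference was 1.85 ± 0.21, or 3.6-fold (adjusted p = 1.04e-05, limma). Insr, the insulin receptor, rose by 0.82 and Rbp4, retinol binding protein, by 0.53. The Rbp4 call was lost in 6 of the 10 fits that left out 1 array (without rosiglitazone array 1, 2, 3 or 5 or obese array 3 or 5), and in the fit of the 10 arrays, with a separate spread or with the within-array SD, Slc2a4 alone was called. Adipoq, adiponectin, read 10.86 to 10.96 with rosiglitazone and 10.55 to 10.86 in obese rats and was not called (0.16, adjusted p = 0.259); Lep, leptin, differed by -0.36, Retn, resistin, by 0.31 and Angptl4 by 0.31, none called.

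Macrophage and inflammation genes were mostly not called. Of 14, 1 rose and 1 fell (7.14% each), with a median of -0.19. Among named clusters above the median level, 23.5% were higher and 3.31% lower. The decreases of the list numbered 3 with quantile normalization, 0 with centring and 2 without obese array 3. Ccl2, which attracts monocytes, read 5.36, 5.47, 6.47, 7.83 and 6.56 with rosiglitazone, against 4.0, 3.97, 4.27, 4.82 and 4.91 in obese rats, a rise of 1.95 ± 0.40 without overlap (adjusted p = 0.00364, limma), which was not called with a separate spread or with the within-array SD as a covariate. Gpnmb, a marker of lipid-laden macrophages, read 6.35, 6.97, 6.01, 7.40 and 6.56 with rosiglitazone, against 7.77, 8.35, 7.19, 8.04 and 8.51 in obese rats, a fall of 1.32 (adjusted p = 0.0352, limma), where rosiglitazone array 4 overlapped obese array 3. This call was lost when rosiglitazone array 1, 3 or 5 or obese array 2 or 5 was left out. Lyz2 (-0.88), Trem2 (-0.84) and Cd68 (-0.71) missed the threshold, with adjusted p from 0.0663 to 0.129, and Tnf, Il6 and Il1b read 1.84 to 2.97 on these arrays and were not called.

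Matrix genes were mixed, with 1 of 13 called higher and 1 lower (7.69% each). Named clusters above the median level had 23.5% higher and 3.31% lower. The median of the list was -0.08, and 0.10 with each array centred on its median. Lox, lysyl oxidase, which cross-links collagen, read 7.95, 8.30, 7.83, 7.85 and 8.51 with rosiglitazone, against 6.80, 6.62, 5.97, 6.37 and 6.15 in obese rats, a rise of 1.71 ± 0.35 without overlap (adjusted p = 0.00316, limma). Sparc fell by 0.37 (adjusted p = 0.0474), a call lost when rosiglitazone array 2, 4 or 5 or obese array 1, 2 or 5 was left out. Col1a1, the main fibrillar collagen chain, read 9.71, 8.11, 10.003, 8.95 and 8.82 with rosiglitazone, against 10.51, 10.33, 9.58, 10.01 and 10.79 in obese rats, overlapping and not called (-1.12, adjusted p = 0.0969).

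The largest named decreases were Nnat, C1qtnf9 and Pla2g2a. Nnat, the imprinted membrane protein neuronatin, read 6.36, 6.79, 6.34, 8.84 and 7.08 with rosiglitazone, against 10.17, 10.55, 10.04, 10.26 and 9.83 in obese rats. Rosiglitazone array 4 was nearest to the obese arrays, and the difference was -3.09 ± 0.37, or 8.51-fold lower (adjusted p = 1.74e-05, limma). A second Nnat cluster fell by 1.12 (adjusted p = 0.00731). C1qtnf9, a secreted protein of the adiponectin-related CTRP family, read 2.87, 3.28, 3.19, 3.32 and 2.61 with rosiglitazone, against 5.58, 5.79, 5.22, 5.51 and 5.59 in obese rats. The groups lay well apart and the difference was -2.48 ± 0.24 (adjusted p = 1.53e-06, limma), but a second cluster with this symbol, at means of 1.66 with rosiglitazone and 1.96 in obese rats, differed by -0.30 and was not called.

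Pla2g2a, a secreted phospholipase A2, read 3.54, 3.34, 4.15, 4.61 and 3.97 with rosiglitazone, against 6.48, 6.34, 5.94, 6.50 and 6.36 in obese rats, a difference of -2.40 ± 0.28 without overlap (adjusted p = 1.42e-05, limma). Dnase1l3, an extracellular nuclease, fell by 2.25, Car4, a carbonic anhydrase on the capillary surface, by 2.02 and Chrdl1, a BMP antagonist, by 1.69. The remaining 9 decreases fell by 1.30 (Pcdh17, a protocadherin) to 1.63 (Mrgprx2, a receptor known from human mast cells), and included Fmod, the collagen-binding proteoglycan fibromodulin (1.48), Slc7a10, a neutral amino acid transporter (1.42), Bcam, a laminin receptor (1.37), and Or51e1, an olfactory-type receptor (1.48). Of the 15, 14 were also lower in rosiglitazone than in resveratrol arrays, and 11 in rosiglitazone than in lean arrays. The exceptions included Dnase1l3, which averaged 4.0 with rosiglitazone, 5.99 with resveratrol, 6.24 in obese and 4.36 in lean rats, and Slc7a10, for which the adjusted p against resveratrol was 0.051. Of the 15 decreases 6 were called under every alternative, and of the 15 increases 12; these counts were not tested against each other.

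Endothelial genes were divided. Of the 3 endothelial markers on the marker list, Cdh5, VE-cadherin, fell by 0.79 (adjusted p = 0.00691), Tek differed by -0.48 and was not called, and Vwf, von Willebrand factor, rose by 1.05 (adjusted p = 0.00248). Vwf read 5.44, 5.93, 5.21, 5.82 and 5.63 with rosiglitazone, against 4.54, 4.23, 4.63, 4.80 and 4.58 in obese rats, without overlap and in the other direction from Cdh5. The Vwf call was lost with the within-array SD as a covariate, and the Cdh5 call with a separate spread for each group. A longer list of 24 endothelial genes was written after the values were seen and is therefore descriptive. It had 9 called lower (37.5%), 1 called higher (Vwf, 4.17%) and a median of -0.52. Among named clusters above the median level, 3.31% were lower and 23.5% higher. Emcn, the vascular surface protein endomucin, read 5.71, 6.28, 5.89, 6.05 and 6.09 with rosiglitazone, against 7.41, 6.89, 7.22, 7.37 and 7.42 in obese rats, a difference of -1.26 ± 0.16 without overlap (adjusted p = 3.18e-05, limma). Jam2, a junction protein, fell by 1.24 and Podxl, podocalyxin, by 1.14.

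The summed linear values of the 24 endothelial genes spanned 825 to 1240.3 on rosiglitazone arrays, 1831 to 2049 on resveratrol arrays, 1273 to 1827 on obese arrays and 1528 to 2149 on lean arrays. The rosiglitazone arrays were thus below all others in this sum. In tissue RNA, fewer cells of a type and less RNA of it per cell cannot be told apart. The count of 9 became 17 with quantile normalization, 6 with centring on the array median and 2 with a separate spread. It stayed at 9 with the within-array SD as a covariate, where 0 were called higher.

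The tissue label was checked against markers. Fat-cell genes were bright on all arrays, with summed linear values of 8419 to 9859 for rosiglitazone and 7457 to 9784 for obese rats over 7 markers, of which 1 (Pnpla2) was called, so the tissue carried fat RNA throughout. Milk protein genes were present on some arrays of both groups: Csn1s1, a casein, read 10.07, 2.67, 10.69, 2.73 and 10.20 on the rosiglitazone arrays and 1.68, 2.05, 11.32, 11.11 and 5.48 on the obese arrays. The sum over 6 mammary genes spanned 20.6 to 1764 on rosiglitazone arrays and 17.7 to 3580.0 on obese arrays, and none of the 6 was called. Obese arrays 3 and 4 both carried milk protein transcripts. The called decreases numbered 1084 without obese array 3 and 3414 without obese array 4, against 2246 with all arrays. Whether mammary tissue bears on these counts was not tested. Markers of skin (6 measured), lymph node cells (6) and macrophages (4) had no calls. Among 4 fibroblast markers Pi16 rose by 1.10 (adjusted p = 0.0446), and of 2 smooth muscle and pericyte markers Pdgfrb rose by 0.57 (adjusted p = 0.0358); each of these calls was lost in 6 or more of the 10 fits that left out 1 array. Of 4 brown fat markers 1, Cidea, was called, and the single markers of red blood cells and nerve and both steroid hormone genes were not.

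Large fold changes were divided unevenly by direction. At 4-fold or more, 79 clusters rose, 52 of them named, whereas 220 fell, of which 7 were named and 213 had no single symbol and could not be described as genes. At 2-fold or more, 924 rose (558 named) and 666 fell (91 named). Among the 924, obese array 3 lay farthest from the rosiglitazone arrays in 67.7% and obese array 1 nearest in 50% of clusters; among the 666, obese array 3 was farthest in 73% and obese array 1 nearest in 62.8%. The 91 named decreases differed in this: obese array 3 was farthest in 34.1% and nearest in 33%, and obese array 1 was nearest in 22%. Without obese array 3 the counts were 604 and 326, and the decreases of 2-fold or more numbered 1060 without obese array 1 and 420 without obese array 5. Of the clusters called at 4-fold or more, 75 of the 79 increases and 110 of the 220 decreases were kept in all 10 fits that left out 1 array. With a separate spread for each group 29 of the 79 increases and 4 of the 220 decreases were kept. With the within-array SD as a covariate 55 and 8 were.

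Direction also followed brightness. Among the named clusters in the dimmest 10% of the table, 1 was called higher and 33 lower, with a median difference of -0.18; among those in the brightest 10%, 629 were higher and 58 lower, with a median of 0.38. Olfactory receptor genes, 1118 clusters of which 1030 lie below the median level, were mostly on the lower side when called: 2 were called higher and 137 lower (12.3%), against 6.12% lower over all clusters and 4.88% over named clusters, with a median of -0.33. Their median level was 1.25, 1.29, 1.28, 1.16 and 1.19 on the rosiglitazone arrays and 1.33, 1.68, 1.94, 1.27 and 1.79 on the obese arrays, so obese arrays 2, 3 and 5 stood above the rest. The count of 137 became 49 without obese array 3, 57 without rosiglitazone array 4, 66 without rosiglitazone array 5, 65 without obese array 5, 86 without obese array 2, 266 without obese array 1 and 292 without obese array 4. It was 48 with quantile normalization, 1 with the within-array SD as a covariate and 0 with a separate spread per group.

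**Figure D4:**
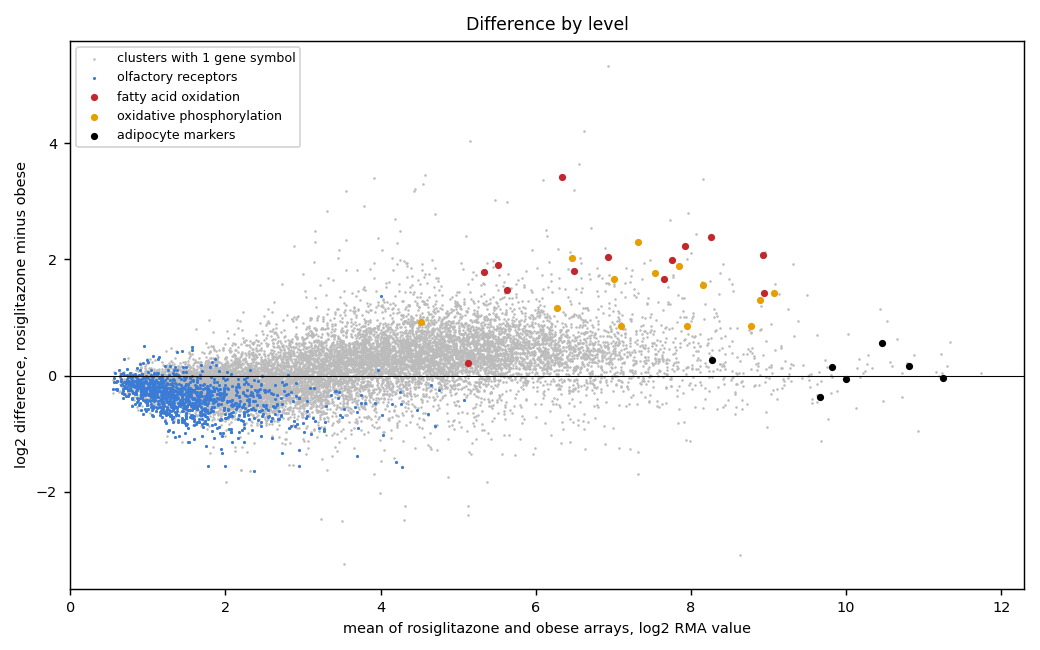
Difference, rosiglitazone minus obese on the log2 scale, against the mean level of the 10 arrays for the 14830 named clusters (grey), with the olfactory receptors, the lists of fatty acid oxidation and oxidative phosphorylation and the adipocyte markers coloured. Dim clusters lie mostly below 0 and bright ones mostly above it; nearly all members of both mitochondrial lists lie high among the clusters at their level, and the adipocyte markers lie near 0.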

How the data were processed

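The values are those of the deposited table: log2 expression after RMA, which corrects background, quantile-normalizes and summarises probes, made by the authors per the submitters' processing notes; the RMA version and array batches are not stated in these sources. RMA's quantile step forces like distributions on probes, so changes are relative. Per the labels, 100 ng of total RNA went on each array; the number of arrays limits the precision.

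All 20 arrays entered 1 limma fit (limma 3.58.1, R 4.3.3; lmFit, eBayes), 1 term per group, with Benjamini-Hochberg adjustment over all 36685 clusters and a threshold of 0.05. The median SE of a difference was 0.19. Tables used Python 3.11.15. Of the clusters, 14830 had 1 symbol in the platform annotation (14666 matched to RefSeq genes), 823 several and 21032 none here; 234 symbols had more than 1 cluster.

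The named genes were the 15 largest increases and 15 largest decreases among called clusters with 1 symbol, without overlap between rosiglitazone and obese arrays and with the brighter group's mean above the median level, plus the members of the lists. The comparison, the lists and the rule were chosen with earlier results of these data known; the citric acid cycle, branched-chain, peroxisome, longer endothelial and hepatocyte lists and the symbol families were chosen after the values were seen. Alternatives were 2 normalizations, 2 filters on dim clusters, a trended robust prior, array weights and each array left out. Others were a fit of the 10 arrays, a separate spread per group and the replicate number as a block. The within-array SD as a covariate was added after seeing the data. The separate spread was an unequal-variance t-test on the 10 arrays, without limma's sharing of spread between clusters.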

Additional observations from a re-analysis of the deposited data

Results flagged for a closer look

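In 4 of the 142 sets of 5 arrays examined, 1 array stood apart from the other 4 of its group by Dixon's criterion; chance alone gives about 1 in 20 such sets, or 7.1 here. Uqcrc2 read 5.72 on obese array 3, against 6.80 to 7.08 on the other obese arrays. Insig1 read 6.72 on obese array 3, against 7.92 to 8.04 on the others. Pcdh17 read 4.97 on obese array 4, against 3.65 to 3.99 on the other obese arrays. Atp5f1b read 10.03 on rosiglitazone array 2, against 9.69 to 9.74 on the other rosiglitazone arrays.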

How the results depend on the processing

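No named gene and no called member of a list changed direction with quantile normalization. Centring adds the same 0.17 to every difference, so it could turn only decreases smaller than that. Medians that changed sign with centring were those of all clusters (-0.08 to 0.09) and of 4 lists. These were the matrix (-0.08 to 0.10), fibroblast (-0.07 to 0.10), hepatocyte (-0.15 to 0.03) and brown fat (-0.02 to 0.15) lists. With quantile normalization the all-cluster (0.0032), hepatocyte (0.03), brown fat (0.17), red blood cell (0.08 to -0.11) and smooth muscle (0.26 to -0.01) medians changed sign. Of 5512 called clusters (3266 higher, 2246 lower; at 2-fold or more 924 higher and 666 lower), a separate spread per group left 325 (263 and 62; 173 and 23), the within-array SD as a covariate 547 (276 and 271; 198 and 166), and a fit of the 10 arrays alone 2594 (1754 and 840; 426 at 2-fold or more lower). Decreases numbered 1416 with quantile normalization, 985 with centring, 1454 without clusters below the median level and 1364 with array weights, and centring gave 5156 increases, 1574 of them at 2-fold or more. Leaving out single arrays gave 3206 to 7361 calls, 2122 to 4002 increases, 1084 to 3414 decreases, 604 to 1232 increases and 326 to 1060 decreases at 2-fold or more. With a separate spread, 4 genes of fatty acid oxidation, 4 of oxidative phosphorylation and 3 of lipogenesis were called; with the within-array SD, 7 of oxidative phosphorylation and 2 of lipogenesis. The separate-spread setting also drops limma's sharing of spread between clusters, and the cause of these falls was not tested. Of the 30 named genes, 11 lost their call with a separate spread and 4 with the within-array SD, and Hist2h2aa2 also without obese array 5. With a separate spread these were Alpg, Aspn, Cilp, Dnase1l3, Dsp, Hist2h2aa2, Mrgprx2, Nnat, Or51e1, Pcdh17 and Slc7a10. With the within-array SD they were Alpg, Aspn, Hist2h2aa2 and Scn7a.

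Same-numbered rosiglitazone and obese arrays did not deviate together in every pair (correlations -0.081 to 0.136). Such weak correlations cannot decide whether the numbers mark pairs, and the labels call the arrays biological replicates only. With the replicate number as a block, 4783 clusters were called (2999 higher, 1784 lower; 904 and 560 at 2-fold or more), with 12, 13 and 6 genes of the 3 lists.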

Other observations

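Proteasome subunit genes were higher with rosiglitazone in 31 of 46 clusters (67.4%) and lower in none, with a median difference of 0.73. Among named clusters above the median level, 23.5% were higher. Psmb7 rose by 1.16 and Psmb5, a catalytic subunit, by 1.07. None of the 46 was called between rosiglitazone and resveratrol arrays. With a separate spread per group, 1 was called against obese arrays, and 1 with the within-array SD as a covariate. The family was chosen after the values were seen.

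Of 5 lysyl oxidase genes, 3 rose (60%, against 23.5% of named clusters above the median level): Loxl1 by 2.40, Lox by 1.71 and Loxl3 by 1.24. With a separate spread 1 was called, and 0 with the within-array SD as a covariate. Of 31 collagen chains, 3 rose (Col8a1, Col5a3 and Col4a2) and 3 fell (Col28a1, Col6a6 and Col23a1), with a median of -0.19. Each share was 9.68%, against 14.1% higher and 4.88% lower among all named clusters. Leaving out 1 array gave 1 to 5 higher (1 without rosiglitazone array 3 or obese array 3, 5 without obese array 1) and 2 to 4 lower (2 without obese array 3, 4 without obese array 4), and a separate spread 1 and 0. Keratins had 1 of 36 clusters called, lower, and miRNA hairpins 1 of 26, lower, shares below the 6.12% lower over all clusters. Each count was 0 in 5 of the 10 fits that left out 1 array. The keratin count was 4 without obese array 1, 3 without obese array 2 and 2 without obese array 4. The miRNA count was 2 without obese array 4.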
